A study of Rattus norvegicus with 14 samples.

Results

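The mRNAs of 8 genes of protease inhibitor families, not all of which encode working inhibitors, were followed among the 16816 gene symbols of the count table: the serpins Serpina3n, Serpinb5, Serpine2, Serpinf1, Serping1 and Serpinh1, the fetuin Fetub and the cathepsin inhibitor Ctla2a. They were chosen by family and by the read counts already known from PPFP versus EV cells without pioglitazone, so their values in that comparison are given as a description with no test. PPFP is the PAX8-PPARG fusion protein of thyroid carcinoma, which joins the thyroid transcription factor PAX8 to PPARG, the nuclear receptor that drives fat cell formation. PCCL3, a differentiated rat thyroid follicular cell line, had been stably transfected with the human fusion carrying a 3xMyc tag (PPFP cells) or with the empty vector (EV cells).

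Each line was cultured for 16 h with 1 µM pioglitazone, a PPARG ligand used against type 2 diabetes, or with the DMSO vehicle, and 3 independent experiments per group gave 12 RNA-seq libraries. All groups shared the same medium, which held serum, thyrotropin, insulin, transferrin and hydrocortisone. Whether a line is a clone or a pool is not given in the sources used here. The replicates are cultures of 1 transfected line each, so an effect of the fusion and any other difference between the lines cannot be told apart.

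Total counts ran from 23724703 to 35240176 per library. Rat Pparg, whose sequence resembles that of the transfected human fusion, had 36 to 88 counts in the EV libraries and 1274 to 1848 in the PPFP libraries. All 8 thyroid follicular cell markers were read in every group, with a summed level between 9880 and 14173 CPM (read counts scaled to a common library size). The hepatocyte marker albumin (Alb) had at most 4 counts in a library. Of the 6 fibroblast markers, Col1a2, Pdgfrb, Lum and Dcn had at most 1, as had the macrophage marker Ptprc, while Pdgfra had 517 to 938 counts and Col1a1 23 to 96. Pdgfra was higher in PPFP cells with pioglitazone (log2 fold change 0.46, adjusted p = 0.014 in edgeR's quasi-likelihood test). The summed level of the 5 macrophage markers in the table was 5.64 to 6.90 CPM in EV and 4.38 to 6.01 in PPFP cells without pioglitazone, and 5.29 to 6.36 and 5.00 to 5.52 with it. Among them, with pioglitazone, Cd68 was higher in PPFP cells (log2 1.18, adjusted p = 0.016 in edgeR) and Cd14 lower (-0.44, adjusted p = 0.038). The part of these markers in the values below was not tested.

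Serpins fold into a strained shape with an exposed loop that a protease cuts as if it were a substrate, after which the serpin snaps shut and traps the enzyme. Some members have lost this activity and work as chaperones or signals instead. Fetuins and the Ctla2 proteins have other folds: Fetub blocks ovastacin of the egg, an astacin metalloprotease, and Ctla2a resembles the propeptide of cathepsin L and blocks cysteine cathepsins.

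RefSeq promoter windows from 250 bases before to 50 bases after the gene start (build GRCr8) were given for 6 of the 8 genes, and Fetub and Serping1 were not among them. Below are the windows of 3 genes with hardly any read in EV cells and clear counts in PPFP cells (Serpina3n, Serpinb5, Ctla2a), and of Serpinf1, which went the other way. Capitals mark each match to AGGTCA, the core that nuclear receptors such as PPARG recognise, or to its reverse complement TGACCT. Serpina3n lies on the plus strand at chr6:129088142-129088441, Serpinb5 on the plus strand at chr13:23499953-23500252, Ctla2a on the plus strand at chr17:3809206-3809505 and Serpinf1 on the minus strand at chr10:60760849-60761148, and all are written 5′ to 3′ along the gene.
Serpina3n: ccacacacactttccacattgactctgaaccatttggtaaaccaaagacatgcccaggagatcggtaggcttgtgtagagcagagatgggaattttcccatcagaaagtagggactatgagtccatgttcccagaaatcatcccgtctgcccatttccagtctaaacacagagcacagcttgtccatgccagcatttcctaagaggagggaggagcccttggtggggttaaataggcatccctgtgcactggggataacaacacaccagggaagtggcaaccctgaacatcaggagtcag
Serpinb5: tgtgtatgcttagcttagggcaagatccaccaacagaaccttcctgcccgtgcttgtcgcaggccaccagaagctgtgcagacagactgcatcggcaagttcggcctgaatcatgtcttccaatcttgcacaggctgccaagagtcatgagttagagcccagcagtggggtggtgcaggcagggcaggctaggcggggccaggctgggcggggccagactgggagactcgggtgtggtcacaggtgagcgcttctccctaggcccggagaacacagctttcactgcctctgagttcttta
Ctla2a: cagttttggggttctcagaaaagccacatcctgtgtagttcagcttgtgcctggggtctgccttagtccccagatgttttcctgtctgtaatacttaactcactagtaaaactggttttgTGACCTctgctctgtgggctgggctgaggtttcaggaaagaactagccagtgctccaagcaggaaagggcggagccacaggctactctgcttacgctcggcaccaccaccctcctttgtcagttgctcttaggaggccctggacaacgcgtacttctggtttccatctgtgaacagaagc
Serpinf1: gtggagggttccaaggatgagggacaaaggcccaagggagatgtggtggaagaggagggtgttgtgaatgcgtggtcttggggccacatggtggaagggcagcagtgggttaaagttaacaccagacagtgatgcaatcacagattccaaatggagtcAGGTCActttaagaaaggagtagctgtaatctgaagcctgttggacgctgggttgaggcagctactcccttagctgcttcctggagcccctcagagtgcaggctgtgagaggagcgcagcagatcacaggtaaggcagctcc
The core was found in 2 of the 6 windows, that of Serpinf1 starting 92 bases before the gene start and that of Ctla2a starting 130 bases before it. Among all 33469 rat promoter windows of this length, 16.2% held it on either strand. The direct repeat AGGTCANAGGTCA, searched on both strands, was in 0 of the 6 and in 0.0538% of all windows. These matches are letters only, and no binding was measured from them here.

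Without pioglitazone, 4 of the 8 genes stood far higher in PPFP than in EV cells (Serpina3n, Serpinb5, Fetub, Ctla2a), Serping1 and Serpinf1 stood lower, Serpinh1 was high in both lines and Serpine2 was not read. The libraries of the lines did not overlap for any of the 7 genes that passed the filter on low counts, and they did not overlap for 56.5% of all 10264 genes tested. That count is a description, since the genes were chosen with this contrast known. In RNA from whole cultures, fewer cells with a transcript and less of it per cell cannot be told apart. Low counts set how each difference is given below: as a ratio of group sums with a 95% interval that covers counting error only, or, where a group had no read, as a lower bound against a floor of 3 counts over the group.

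**Figure D1:**
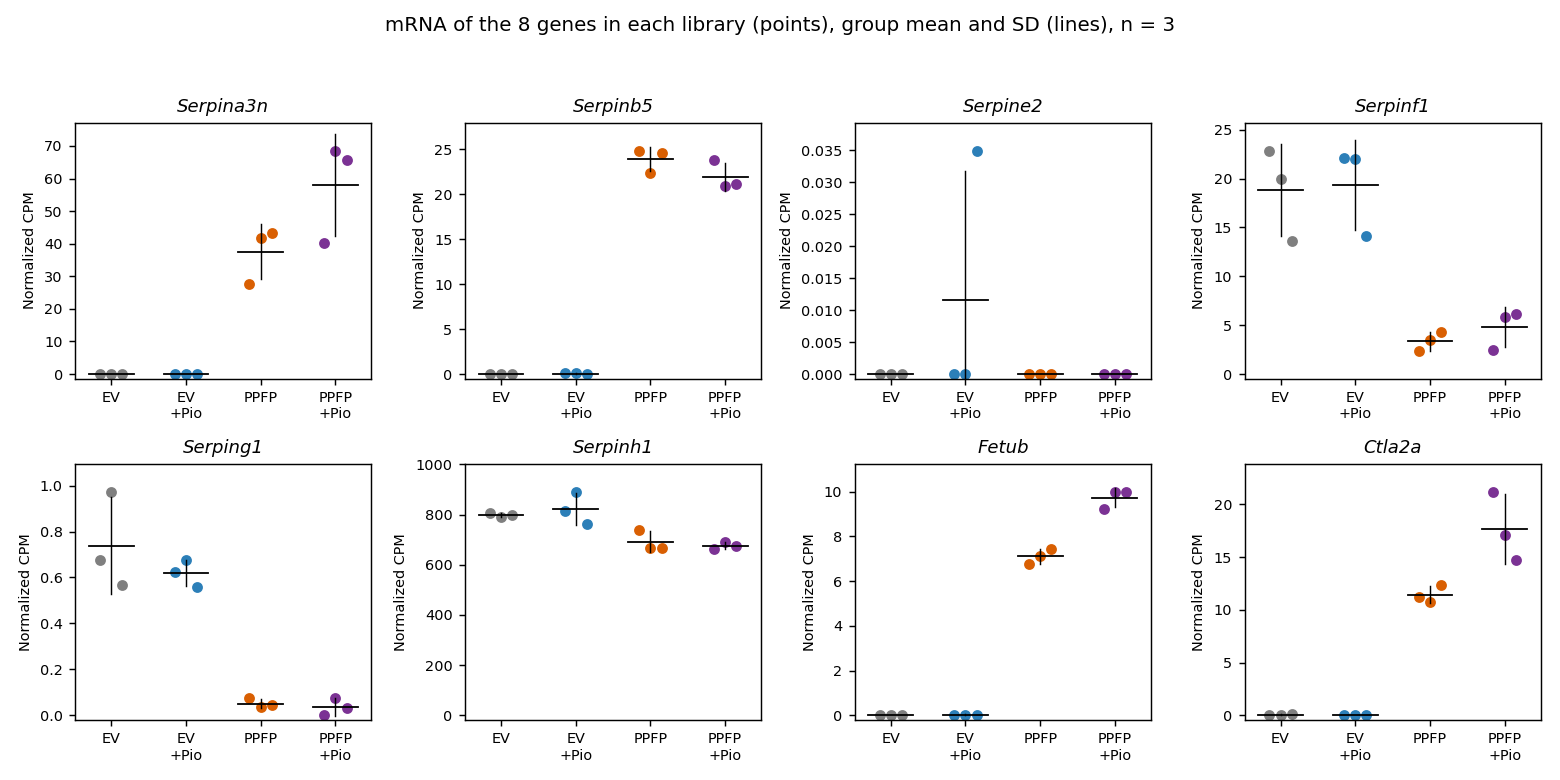
Normalized CPM (vertical axis, a separate scale for each gene) of the 8 genes in the 12 libraries, with points for libraries and lines for the mean and SD of 3 libraries per group. Serpina3n, Serpinb5, Fetub and Ctla2a lie near 0 in all EV libraries and between 6.77 and 68.6 in the PPFP libraries, Serpinf1 and Serping1 run the other way, and Serpine2 shows the level of 1 read.

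Among the serpins that trap proteases, Serpina3n is an acute-phase protein and a rat relative of human antichymotrypsin, which blocks leukocyte proteases. Its counts were 1, 1 and 0 in EV cells and 754, 1118 and 1008 in PPFP cells without pioglitazone. With pioglitazone they were 1, 0 and 0 in EV cells and 1059, 1839 and 1964 in PPFP cells. The PPFP libraries were thus all at 754 reads or more, and no EV library had more than 1 read. The ratio of PPFP to EV was 1665 without pioglitazone (95% counting interval 461 to 13757) and 5648 with it (1013 to 223124). Serpina3n belongs to a cluster of close paralogs, among which reads could be split or lost by the counting, so its level is uncertain to that extent.

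Serping1, the C1 inhibitor, restrains the complement proteases C1r and C1s and the contact system. It was low in these cells, with 20, 29 and 17 counts in EV cells and 2, 1 and 1 in PPFP cells without pioglitazone. With the drug the counts were 23, 21 and 16 in EV cells and 0, 2 and 1 in PPFP cells. Every EV library stayed above every PPFP library. The level in EV cells was 14.3 times that in PPFP cells without pioglitazone (5.32 to 53.9) and 17.2 times with it (5.62 to 85.8). In CPM this is a fall from 0.738 ± 0.21 to 0.0512 ± 0.0195 (SD, n = 3) without the drug.

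Serpine2, protease nexin 1, blocks thrombin and plasminogen activators. It had 1 read in the whole table, in the EV library with pioglitazone of replicate 3, and never entered a test. The 0 reads of the PPFP cells without pioglitazone allow up to 0.0388 CPM at a floor of 3 counts over the group, and those with pioglitazone up to 0.0361 CPM. No difference between groups could be measured at that depth.

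Serpinb5 (maspin), a serpin of epithelial cells that does not trap proteases, had no read in the 3 EV libraries without pioglitazone. In PPFP cells without the drug it had 675, 600 and 573 counts. With pioglitazone the counts were 3, 2 and 1 in EV cells and 627, 559 and 633 in PPFP cells. Without pioglitazone the PPFP level was at least 712-fold higher, and it was 352 times higher with it (161 to 961). The spread within PPFP cells was narrow, at 23.9 ± 1.33 CPM without the drug and 21.9 ± 1.59 with it (SD, n = 3).

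Serpinf1, pigment epithelium-derived factor, is a secreted serpin with no inhibitory activity that acts on vessels and on fat breakdown. Its level in EV cells was 22.9, 19.9 and 13.6 CPM without pioglitazone and 22.1, 22.0 and 14.1 with it. In PPFP cells it was 2.32, 3.47 and 4.28 CPM without pioglitazone and 2.42, 5.82 and 6.18 with it. The lines did not overlap under either condition. The fitted level was 5.62-fold lower in PPFP cells without the drug (log2 fold change -2.49, standard error 0.27) and 3.96-fold lower with it (-1.99, standard error 0.35).

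Serpinh1 (HSP47) is the collagen chaperone of the endoplasmic reticulum and does not inhibit proteases. It had 15558 to 30106 counts in every library. The level in EV cells was 805, 791 and 797 CPM without pioglitazone and 816, 891 and 761 with it. In PPFP cells it was 740, 668 and 666 CPM without the drug and 663, 691 and 676 with it. All PPFP libraries lay below all EV libraries, but by little, with a fitted level 1.15-fold lower without pioglitazone (log2 fold change -0.21, standard error 0.079) and 1.20-fold lower with it.

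Fetub had no read in EV cells without pioglitazone and 184, 191 and 174 counts in PPFP cells. With pioglitazone the counts were 1, 0 and 1 in EV cells and 244, 268 and 299 in PPFP cells. The ratio was at least 212 without the drug and 471 with it (130 to 3896). Ctla2a had 2, 1 and 3 counts in EV cells and 305, 289 and 289 in PPFP cells without pioglitazone. With the drug it had 0, 1 and 2 counts in EV cells and 560, 458 and 441 in PPFP cells. These are ratios of 170 (77.9 to 465) and 565 (193 to 2743), and for both genes the PPFP libraries were far above every EV library.

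The comparison of PPFP with EV cells under pioglitazone uses 6 libraries that the choice did not, though they come from the same lines. By the quasi-likelihood test of edgeR, adjusted after Benjamini and Hochberg over all 10291 genes tested, a call took a fold above 2 and an adjusted p below 0.05, and 9.3% of all genes tested were called higher in PPFP cells and 10.4% lower. Serpinf1, which both lines express, was called lower with an adjusted p of 0.0027. The other called genes passed the filter on low counts through a single line, Serpina3n, Serpinb5, Fetub and Ctla2a through PPFP cells and Serping1 through EV cells. Such genes had to differ, so their calls are a description and no count over the members is drawn from them. The adjusted p was 5.1e-06 for Serpina3n, 1.1e-06 for Serpinb5, 4.5e-06 for Fetub, 6.3e-06 for Ctla2a and 8.9e-04 for Serping1. The fitted fold changes depend on a few reads in the low line, and the ratios above stand in their place.

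Serpinh1 passed only at any fold, where the log2 fold change was -0.27, its standard error 0.084 and the adjusted p 0.032, and its lines did not overlap. Of all genes tested, 52.7% had such a p and 62.9% did not overlap. Leaving out any of PPFP replicates 1, 2 and 3 or EV replicate 1 took Serpinh1 above 0.05, to adjusted p between 0.072 and 0.091, and it was also above with the exact test (adjusted p = 0.11) and with the replicate block (adjusted p = 0.11). The call of Serpinf1 held with each of the 6 libraries left out in turn.

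In PPFP cells, pioglitazone raised Fetub and Ctla2a by less than 2-fold, and Serpina3n was higher with it in every experiment. Of the 6 members tested, edgeR called 0, where 2.42% of all 10064 genes tested were called, and 3 had an unadjusted p under 0.05, as 28.8% of all genes tested did. DESeq2 also called 0 of them, and 257 of the 10064 genes. The members with an adjusted p under 0.05 at any fold were 2 of 6, where 14.8% of all genes tested had one. Replicate numbers paired the libraries within each line, so changes are also given within a number.

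Fetub went from 6.77, 7.13 and 7.45 CPM to 9.24, 9.99 and 9.98. Each experiment rose by nearly the same factor, 1.37, 1.40 and 1.34, and no library with the drug was as low as one without. The log2 fold change was 0.46 (standard error 0.096, 95% interval 0.23 to 0.69, adjusted p = 0.023 in edgeR). Ctla2a went from 11.2, 10.8 and 12.4 CPM to 21.2, 17.1 and 14.7. Its factors were less even, 1.89, 1.58 and 1.19, and again the groups did not overlap. The log2 fold change was 0.63 (standard error 0.14, 95% interval 0.29 to 0.97, adjusted p = 0.030 in edgeR). These 2 genes were those whose groups did not overlap, as against 34.4% of all genes tested.

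Either call at any fold was lost in 4 of the 6 fits with a library left out. Fetub rose above 0.05 without replicates 2 or 3 of either group, with adjusted p from 0.075 to 0.11, and Ctla2a without PPFP-Pio replicates 1, 2 or 3 or PPFP+Pio replicate 2, with adjusted p from 0.067 to 0.13. In a fit of all 12 libraries they had an adjusted p of 0.0999 and 0.058. The exact test with tagwise dispersion gave 0.061 for Fetub and 0.0053 for Ctla2a. With the replicate number as a block the adjusted p was 1.4e-04 for Fetub and 3.0e-06 for Ctla2a.

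Serpina3n went from 27.7, 41.7 and 43.2 CPM to 40.1, 68.6 and 65.6. The experiments differed in level, replicate 1 being lowest in both groups, but the factors within an experiment were 1.45, 1.64 and 1.52. Without pairing the log2 fold change was 0.64 (95% interval 0.02 to 1.26, adjusted p = 0.16 in edgeR), and with the replicate number as a block it was 0.63 (adjusted p = 2.0e-10). Without PPFP+Pio replicate 1 the unpaired adjusted p was 0.047, and the exact test with tagwise dispersion gave 0.022. Serpinf1 changed by factors of 1.05, 1.68 and 1.44, so that the rise was slight in replicate 1. Its log2 fold change was 0.54 unpaired (-0.42 to 1.498, adjusted p = 0.44) and 0.52 with the block (adjusted p = 0.0024). With the block, 4 of the 6 members fell below 0.05, whatever their fold, but so did 51.6% of all genes tested, and the count of members is read no further.

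Serpinb5 and Serpinh1 gave no call with or without the block. Serpinb5 changed by factors of 0.956, 0.931 and 0.861, with a log2 fold change of -0.12 (95% interval -0.30 to 0.07, adjusted p = 0.39 in edgeR). Serpinh1 changed by 0.897, 1.03 and 1.01, with a log2 fold change of -0.02 (-0.16 to 0.12, adjusted p = 0.87). The intervals hold both genes to well under a 2-fold change. Serping1, with 4 reads in 3 libraries without the drug and 3 with it, did not pass the filter.

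**Figure D2:**
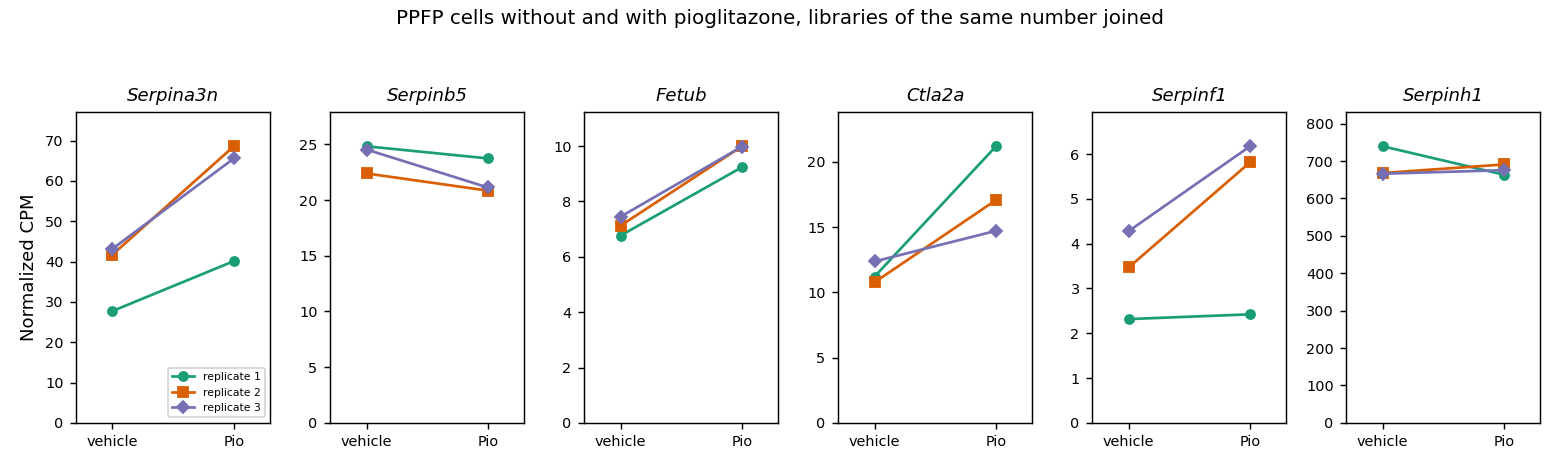
Normalized CPM (vertical axis from 0, a separate scale for each gene) in PPFP cells with vehicle and with pioglitazone, with lines joining libraries of the same replicate number. Fetub and Ctla2a rise in all 3 experiments without overlap of the groups, Serpina3n rises in all 3 from different starting levels, and Serpinb5 with the drug stands at 0.861 to 0.956 of its level without it.

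In EV cells, 3 members passed the filter and none was called. The log2 fold change with pioglitazone was 0.04 for Serpinf1 (95% interval -0.52 to 0.61), -0.25 for Serping1 (-0.92 to 0.42) and 0.04 for Serpinh1 (-0.16 to 0.25), and edgeR gave each an adjusted p above 0.99. Of all 10146 genes tested, 0% had an adjusted p under 0.05 in edgeR, 16 had an unadjusted p under 0.05, and DESeq2 called 0. Serpinb5 had 6 reads over the 3 libraries with the drug and none without it, too few to pass the filter.

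The difference in pioglitazone response between the lines was tested as an interaction over all 12 libraries. Of the 7 members tested, edgeR called 0 and gave 0 an adjusted p below 0.05, where 0.925% and 2.64% of all 10482 genes did. DESeq2 called 0 of them, and 139 of the 10482 genes. Only Serpinb5, 1 of the 7, had an unadjusted p under 0.05 (adjusted p = 0.090), as 13.3% of all genes tested did. For the 4 genes nearly absent from EV cells, Serpinb5 among them, the response there rests on 0 to 3 reads a library, so no fitted difference is given for them. For Serpinf1 the difference was 0.48 on the log2 scale (95% interval -0.58 to 1.55) and for Serpinh1 it was -0.08 (-0.30 to 0.15). With replicate numbers as a block within each line, Serpinf1 had 0.46 (adjusted p = 0.026), in a fit where 34.3% of all genes tested had an adjusted p below 0.05.

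The protein-coding genes next to the members in the GRCr8 order, matched by symbol, were read as well. Serpina3n is next to the homeobox gene Gsc, which had 0 counts in all 12 libraries. Fetub lies between Hrg and Ahsg, 2 related liver cystatin-fold proteins, and both had 0 counts in all 12 libraries. Serpinb5 lies between Vps4b, with 3447 to 5097 counts, and Serpinb12, with 0. Ctla2a lies between Tpbpa, with 0 to 7 counts, and Testin, which had 0 counts in all EV libraries, 1 to 3 in PPFP cells and 5 to 8 in PPFP cells with pioglitazone. Serpine2, at 1 read, is next to the mitochondrial ribosome gene Mrpl44, with 1006 to 1503 counts. Serpinf1 is next to Serpinf2, which had 41 reads over the EV and 57 over the PPFP libraries without the drug, and 43 and 92 with it. Serping1 lies between Ypel4 and Ube2l6. Ypel4 had 70 reads over the EV and 263 over the PPFP libraries without pioglitazone, and 108 and 171 with it, while Ube2l6 had 516 to 916 counts in a library.

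Beyond the members 29 other serpins of the table were followed, of which 14 had no read in any library. Without pioglitazone 8 were tested, 3 were called higher in PPFP cells (7.27% of all genes tested were) and 1 lower (7.31%). Of the 3 genes, Serpina1 and Serpinb8 had under 10 counts in every EV library and entered the test through PPFP cells alone, so they had to differ and the count is a description. Serpinb8, a clade B serpin that blocks furin, had 3 to 5 counts per EV library and 214 to 375 per PPFP library, a ratio of 84.7 (47.1 to 170). Serpinb1a, an inhibitor of neutrophil elastase, rose from 6.06 ± 1.61 to 51.2 ± 4.80 CPM (SD, n = 3, log2 fold change 3.08, adjusted p = 2.6e-05 in edgeR). Serpini1 (neuroserpin), an inhibitor of tissue plasminogen activator, fell from 10.9 ± 0.64 to 1.41 ± 0.51 CPM (log2 fold change -2.96, adjusted p = 8.3e-05). With pioglitazone 10 were tested, 6 were called higher (9.3% of all genes tested were) and 1 lower (10.4%), and 4 of the 6 likewise had under 10 counts in every EV library. No median over the list is given for that reason.

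The genes of the Serpina family below were singled out after their values were seen. Serpina1 (alpha-1 antitrypsin), the liver's elastase inhibitor, had 0 to 3 counts in each EV library and 50, 62 and 57 in PPFP cells without pioglitazone. Serpina3k and Serpina11 had no read in any EV library, and 8 to 16 and 4 to 12 in PPFP cells without the drug. Serpina5 and Serpina9 likewise had reads in PPFP cells only, Serpina5 with 1, 1 and 0 without pioglitazone and 7, 13 and 13 with it. All 6 Serpina genes with any read, Serpina3n included, thus had more in each PPFP group than in either EV group. For Serpina5 and Serpina9 without pioglitazone that rests on 2 and 5 reads over the PPFP libraries. No share over all genes was computed, so this is a description of genes picked by their values. Serpina3k reads may stem in part from the more abundant Serpina3n, since paralogs share sequence.

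**Figure D3:**
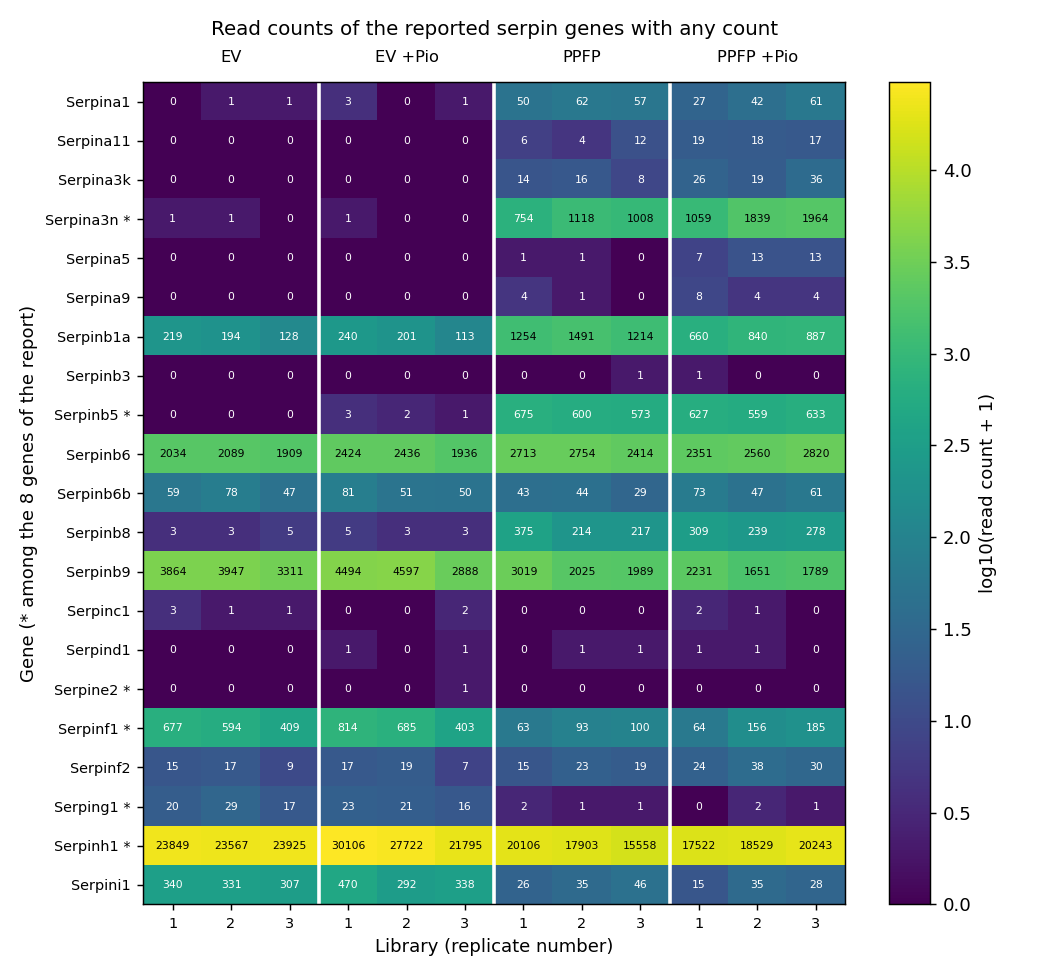
Read counts of the serpin genes reported here with any count (rows, an asterisk marks the genes followed here) in the 12 libraries (columns, numbered by replicate within each group), with colour on a log10(count + 1) scale and the count printed in each cell. The Serpina genes, Serpinb5 and Serpinb8 have between 0 and 5 counts in the EV libraries, and Serpinf1, Serping1 and Serpini1 have more reads there than in the PPFP libraries.

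With pioglitazone in PPFP cells, Serpinb1a fell by 0.83 as a log2 fold change with an adjusted p of 0.0062 in edgeR, short of 2-fold. It had 1254, 1491 and 1214 counts without the drug and 660, 840 and 887 with it, so that every library with the drug lay below every library without.

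Of 54 other protease inhibitors listed, 47 were in the table and 12 of those had no read. Without pioglitazone 16 were tested, with 3 called higher and 5 lower in PPFP cells, where 7.27% and 7.31% of all genes tested were. Among the 5, Itih3 and Kng1 had under 10 counts in every PPFP library and entered through EV cells alone, so that count is a description too. Pzp, a relative of alpha-2 macroglobulin, rose from 0.659 ± 0.065 to 5.62 ± 0.28 CPM (SD, n = 3). Latexin (Lxn), an inhibitor of carboxypeptidases, rose with a log2 fold change of 1.54 (adjusted p = 3.0e-04 in edgeR), and the amyloid precursor relative Aplp2 with 1.41 (adjusted p = 1.6e-05). Wfdc2, a whey acidic protein, fell with -2.74 (adjusted p = 8.3e-05), and the hyaluronan-binding heavy chain Itih3 went from 161 reads over the EV libraries to 17, a ratio of 8.19 (4.96 to 14.4). The other called genes, Kng1, whose mean lies under 1 CPM, Tfpi and Reck, were lower and are named after their values were seen. With pioglitazone 3 of 18 were called higher and 7 lower (9.3% and 10.4% of all genes tested), 3 of the 7 with under 10 counts in every PPFP library, and in PPFP cells the drug called 0 of 15 (2.42% of all genes tested), with 2 below an adjusted p of 0.05, whatever their fold (14.8%).

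The proteases and partners of the members were also read. Of the complement and contact proteases that Serping1 blocks, 4 were tested, all of them of complement. The contact proteases had too few reads. Of the 4 tested, 3 were called higher in PPFP cells without pioglitazone (7.27% of all genes tested were), where Serping1 itself was lower. C1r rose from 71.0 ± 12 to 309 ± 4.1 CPM (SD, n = 3, log2 fold change 2.12, adjusted p = 2.1e-05 in edgeR). C1s rose with a log2 fold change of 1.41 (adjusted p = 9.3e-04), and the lectin pathway protease Masp1 with 2.11 (adjusted p = 2.5e-04). With pioglitazone 2 of the 4 were called higher (9.3% of all genes tested), C1r and C1s, and Masp1 was not (log2 fold change 0.70, adjusted p = 0.058). In PPFP cells pioglitazone lowered Masp1 by 1.61 on the log2 scale (adjusted p = 7.1e-04) and C1s by 0.58 (adjusted p = 0.011), the latter lost in a fit of all 12 libraries (adjusted p = 0.11) and without PPFP-Pio replicate 3 (0.058). Over 14 fits with other settings in edgeR or DESeq2, the replicate block among them, the adjusted p of C1s ran from 2.7e-08 to 0.11.

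Of the collagens and collagen enzymes that work with Serpinh1, 13 were tested, with 1 called higher and 2 lower in PPFP cells without pioglitazone, where 7.27% and 7.31% of all genes tested were, and the counts are a description. The lysyl hydroxylase Plod2, which entered the test through EV cells alone, went from 680 reads over the 3 EV libraries to 2, a ratio of 294 (81.1 to 2433). Col5a1, a fibrillar collagen chain, fell from 90.2 ± 12.7 to 5.75 ± 2.17 CPM (log2 fold change -3.97, adjusted p = 3.9e-05 in edgeR). The prolyl isomerase Fkbp10 lay at the 2-fold line, with a log2 fold change of 1.01 (adjusted p = 5.2e-05) that was 0.93 with library size scaling alone, and with pioglitazone it was 0.88 and not called (adjusted p = 7.0e-05). The basement membrane chain Col4a1 gave -0.12 (adjusted p = 0.46), and in PPFP cells pioglitazone brought 0 of the 12 tested to an adjusted p under 0.05, as against 14.8% of all genes tested.

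Among proposed receptors of Serpinf1, the triglyceride lipase Pnpla2 rose in PPFP cells by 0.61 without pioglitazone (log2 scale, adjusted p = 0.0011 in edgeR) and by 1.43 with it (adjusted p = 5.5e-05). In PPFP cells the drug took Pnpla2 from 219 ± 19 to 404 ± 43 CPM (log2 fold change 0.90, adjusted p = 0.0036). Plxdc1 fell with a log2 fold change of -2.19 without pioglitazone (adjusted p = 1.0e-05). Plxdc2 was lower in PPFP than in EV cells with pioglitazone (-1.03, adjusted p = 0.0017 in edgeR). In PPFP cells the drug gave Plxdc2 a log2 fold change of -0.64 (adjusted p = 0.0055). Of the 4 receptors tested with pioglitazone, 1 was called higher in PPFP cells and 2 lower, where 9.3% and 10.4% of all genes tested were. Cathepsin L (Ctsl1), the enzyme that Ctla2a blocks, rose from 503 ± 87.0 to 1137 ± 80.3 CPM without the drug (log2 fold change 1.18, adjusted p = 4.0e-04). Cathepsin S (Ctss), singled out after its values were seen, had 19 reads over the EV and 151 over the PPFP libraries, a ratio of 9.19 (5.69 to 15.7). With pioglitazone in PPFP cells, where Ctla2a was higher, Ctss fell from 42 to 60 counts a library to 21 to 29 (log2 fold change -1.06, adjusted p = 0.016 in edgeR). That call was lost in a fit of all 12 libraries (adjusted p = 0.085) and without replicates 2 or 3 of either group (0.060 to 0.083). Over 14 fits with other settings in edgeR or DESeq2, the replicate block among them, the adjusted p of Ctss ran from 1.8e-04 to 0.085. Cathepsin H (Ctsh) also fell (-0.38, adjusted p = 0.0058). Cathepsin B (Ctsb) gave -0.26 (adjusted p = 0.026). Its adjusted p was above 0.05 in the fit of 12 (0.24), in the exact test (0.16) and without replicates 2 or 3 of either group (0.059 to 0.11). Over the same 14 settings the adjusted p of Ctsb ran from 1.7e-06 to 0.24. Ctsl1 gave 0.03 (adjusted p = 0.79). Without pioglitazone, prothrombin (F2), whose active form Serpine2 blocks, had 450 reads over the EV and 30 over the PPFP libraries, a ratio of 13.0 (8.96 to 19.5). The astacin Bmp1, the 1 tested enzyme of the Fetub list, had a log2 fold change of -0.49 in PPFP versus EV cells without pioglitazone (adjusted p = 0.014 in edgeR). With pioglitazone it was -0.92. That list holds astacins by family, and whether Fetub blocks Bmp1 was not tested. The leukocyte proteases listed with Serpina3n gave no test, since 3 of 4 had no read.

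**Figure D4:**
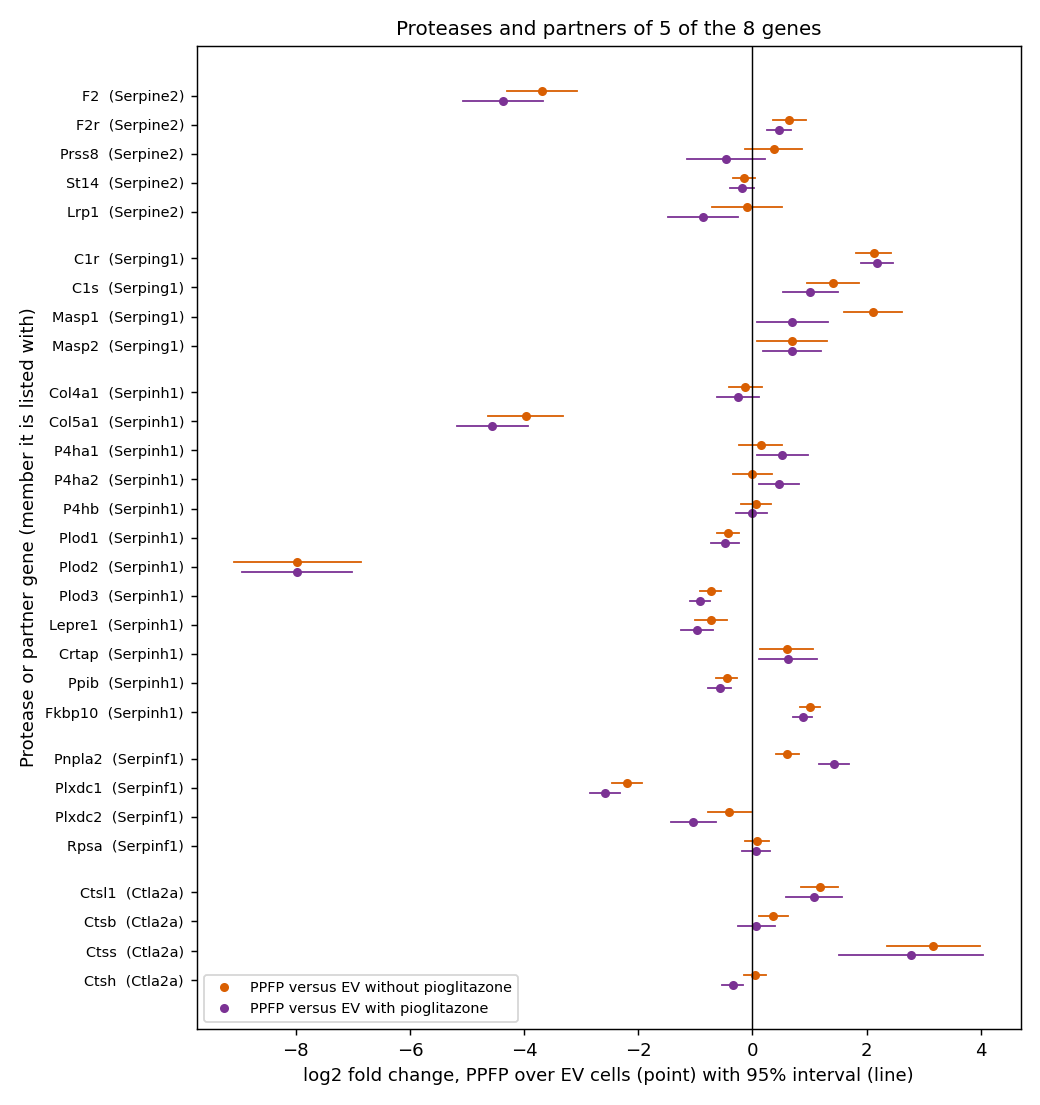
Log2 fold change in PPFP over EV cells (horizontal axis, points) with 95% intervals (lines) for proteases and partners of 5 members, without (orange) and with pioglitazone (purple). C1r lies at 2.12 and 2.19, Col5a1 at -3.97 and -4.56, and Plod2, which has nearly no read in PPFP cells, at fitted values that depend on those reads.

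Genes with the profile most like each member were sought among 9632 genes at 1 CPM or more, by the root mean square difference of centred log2 CPM over the 12 libraries, which is a description. For Fetub the nearest were the carboxylesterase Ces2g (0.28) and the adipocyte protease Cfd (0.31), and for Ctla2a they were Ces2g (0.34) and the microfibril gene Mfap5 (0.42). Ces2g averaged 0.490 CPM in EV and 61.3 in PPFP libraries, and Cfd 9.96 and 820. For Serpina3n they were the growth factor carrier Fgfbp1 (0.59) and reelin, Reln (0.63), and for Serpinb5 Reln (0.46) and the sulfotransferase Sult1b1 (0.51). Serpinf1 was nearest to Spsb2 (0.26) and the anion transporter Slc22a7 (0.28), both lower in PPFP cells. Serpinh1, nearly level, was nearest to Ndufb2 (0.042) and Stk16 (0.047).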

How the data were processed

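RNA was extracted from 12 cultures (4 groups of 3) and libraries were made with a TruSeq RNA kit. The authors' processing notes name TopHat2 2.0.11, HTSeq 0.6.1p1 and the rat build rn4, and they deposited raw read counts per gene symbol, which were used as they stand. Counting by strand is not stated, so reads of overlapping or antisense genes cannot be told apart. The whole table was fitted with edgeR 4.0.16 in R 4.3.3 (TMM scaling, filterByExpr, quasi-likelihood F test, Benjamini-Hochberg adjustment over all genes tested), each pairwise comparison on its own 6 libraries and the interaction on 12. A called gene had a fold above 2 and an adjusted p below 0.05. CPM values are TMM-normalized, and levels are not compared between genes. Intervals of ratios are exact binomial intervals at 95% for group sums of up to 30 counts in the lower group.

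The members and lists were chosen with earlier results of these data known. Named genes were all members, the 2 nearest profiles of each member above 1 CPM, from the lists of other inhibitors up to 5 called genes at 1 CPM or more with the largest change without pioglitazone and those called for pioglitazone in PPFP cells, and partners at 1 CPM or more. Libraries with the same number deviated together within each line, with correlations of 0.743, 0.464 and 0.432 in PPFP and 0.530, 0.729 and 0.774 in EV cells, so numbers were taken as pairs there. In PPFP cells replicates 2 and 3 also correlated across numbers (0.350 and 0.535), so the data do not tell these 2 numbers apart. Between the lines same-numbered libraries correlated from -0.378 to 0.316, and PPFP replicate 1 correlated best with EV replicate 3 (0.509 without and 0.452 with pioglitazone), so numbers were not taken as pairs. The alternatives were DESeq2 1.42.0, RLE or library size scaling, other count filters, the exact test, 1 joint fit, replicate blocks and leaving out each library. Scripts were tested on simulated data. ChIP peaks were not analysed here, since their coordinates are rn4 and the gene tables GRCr8. A gene of the serpin list is not reported here.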

Additional observations from a re-analysis of the deposited data

Results flagged for a closer look

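None of the 8 genes met a criterion for a closer look. For 2 genes of the surrounding lists the response to pioglitazone differed between the lines by a test of the difference itself, the interaction term in edgeR over 12 libraries, given as PPFP minus EV cells on the log2 scale. For the lipase Pnpla2 the difference was 0.80 (standard error 0.13, adjusted p = 0.0091), and for the metalloprotease inhibitor Timp2 it was -0.60 (standard error 0.10, adjusted p = 0.010). In both the response in EV cells alone was below 0.1 in size on that scale.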

How the results depend on the processing

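Counts of members are given first. With pioglitazone, a filter of at least 10 counts in every library kept 2 members, of which 1 was called for PPFP versus EV (14.8% of all genes) and 2 had an adjusted p under 0.05 (50.2%), since the others are near 0 in a line. For pioglitazone in PPFP cells, members with an adjusted p under 0.05 at any fold numbered 2 in the fit reported (14.8% of all genes), 0 with all 12 libraries in a fit (11%), 4 with the replicate block (51.6%), and 0 to 3 with a library left out. Over the fits with a library left out, from 632 of 10129 to 1729 of 10154 genes had such a p. For the difference in response, the replicate block within each line gave 1 member called (2.57% of all genes) and 2 with an adjusted p under 0.05 (34.3%), and the one called, Serpinb5, had no EV read without the drug. The block changed no other count of members called. Log2 fold changes turned in sign with a library left out only where they lay near 0 or rested on few reads: Serpinh1 with pioglitazone in PPFP cells (-0.0606 to 0.0136), Serpinf1 and Serpinh1 in EV cells (-0.13 to 0.22 and -0.0147 to 0.0838), and the difference in response of Serping1 (-1.10 to 0.28). The cause was not tested. In all, 1378 values of single genes under an alternative stayed the same, 45 lost the threshold, 6 gained it, 10 moved and 7 turned in sign. The same meant an unchanged direction and side of the threshold. Members in PPFP versus EV without pioglitazone had no test and so no threshold. For them the same meant a shift below the SD of log2 CPM between libraries within groups, and moved a shift of at least that SD. Other settings for ChIP peaks were not run, since the peaks were not analysed. Under about 10 reads per library, as for Serping1 in PPFP cells, limit what this depth can show.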
